A study of Mus musculus with 4 samples.

Results

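The genes described here are 8 transcription factor genes that set dendritic cell (DC) lineages, namely Zbtb46, Id2, Nfil3, Bcl6, Gfi1, Bcl11a, Zeb2 and Tcf4. They were taken by name, and a Runx3-bound region (a peak) was assigned to a gene when the centre of the peak lay in the gene body or within 100 kb of it, an interval called the window here. The 8 windows held 33 of the 15121 deposited peaks. The peaks came from chromatin immunoprecipitation sequencing (ChIP-seq) of splenic CD11chiMHCII+CD4+ DC, sorted from C57BL/6 mice with about 15 mice pooled per sample. There were 2 Runx3_IP samples, precipitated with an in-house polyclonal antibody to Runx3, and 2 input samples of whole cell extract chromatin without precipitation. The label of input 2 gives the strain as C57BL/7, a name that no other sample carries. The cells were from wild-type mice, so chromatin without Runx3 was not part of the comparison. The authors called 1 peak list on both precipitates against both inputs, so no value has a spread between replicates, and counts are given without a test. The list gives no RNA level, and the identity of the sorted cells was not checked here.

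Runx3 is a DNA-binding protein of the RUNX family, which recognises the hexamer TGTGGT and the related TGCGGT together with its partner CBFβ. DC develop from bone marrow progenitors into conventional DC (cDC), which present antigen to T cells, and plasmacytoid DC (pDC), which secrete type I interferon. The choice between these fates depends on factors that oppose each other: E proteins such as the product of Tcf4 favour pDC, and Id2 binds E proteins and keeps them off DNA. Zbtb46 marks cDC and their committed precursors.

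Each of the 8 genes had a peak in its window, and 72.1% of 22368 genes did so under the same rule. The number of peaks ran from 9 at Zbtb46, 7 at Bcl11a and 6 at Bcl6 to 3 at Id2, 3 at Tcf4, 2 at Zeb2, 2 at Nfil3 and 1 at Gfi1. Zbtb46, Bcl11a and Bcl6 thus held 22 of the 33 peaks, and the other 5 genes held 11. Per length, the windows carried 1.44 peaks per 100 kb, against 0.57 over chromosomes 1 to 19, X and Y. The median window of all genes held 0.943 peaks per 100 kb, so each gene was also ranked among all genes. The density of Zbtb46, 3.31 peaks per 100 kb, was above that of 88.9% of genes. Bcl6 with 2.68 and Bcl11a with 2.36 exceeded 82.9% and 78.6% of genes. Id2 with 1.48 lay above 64.8% of genes. The density of Nfil3 was 0.935, next to that of the median gene. Zeb2 with 0.599, Tcf4 with 0.552 and Gfi1 with 0.478 lay below that median. The 8 genes therefore spread over the upper and the lower part of the distribution.

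**Figure D1:**
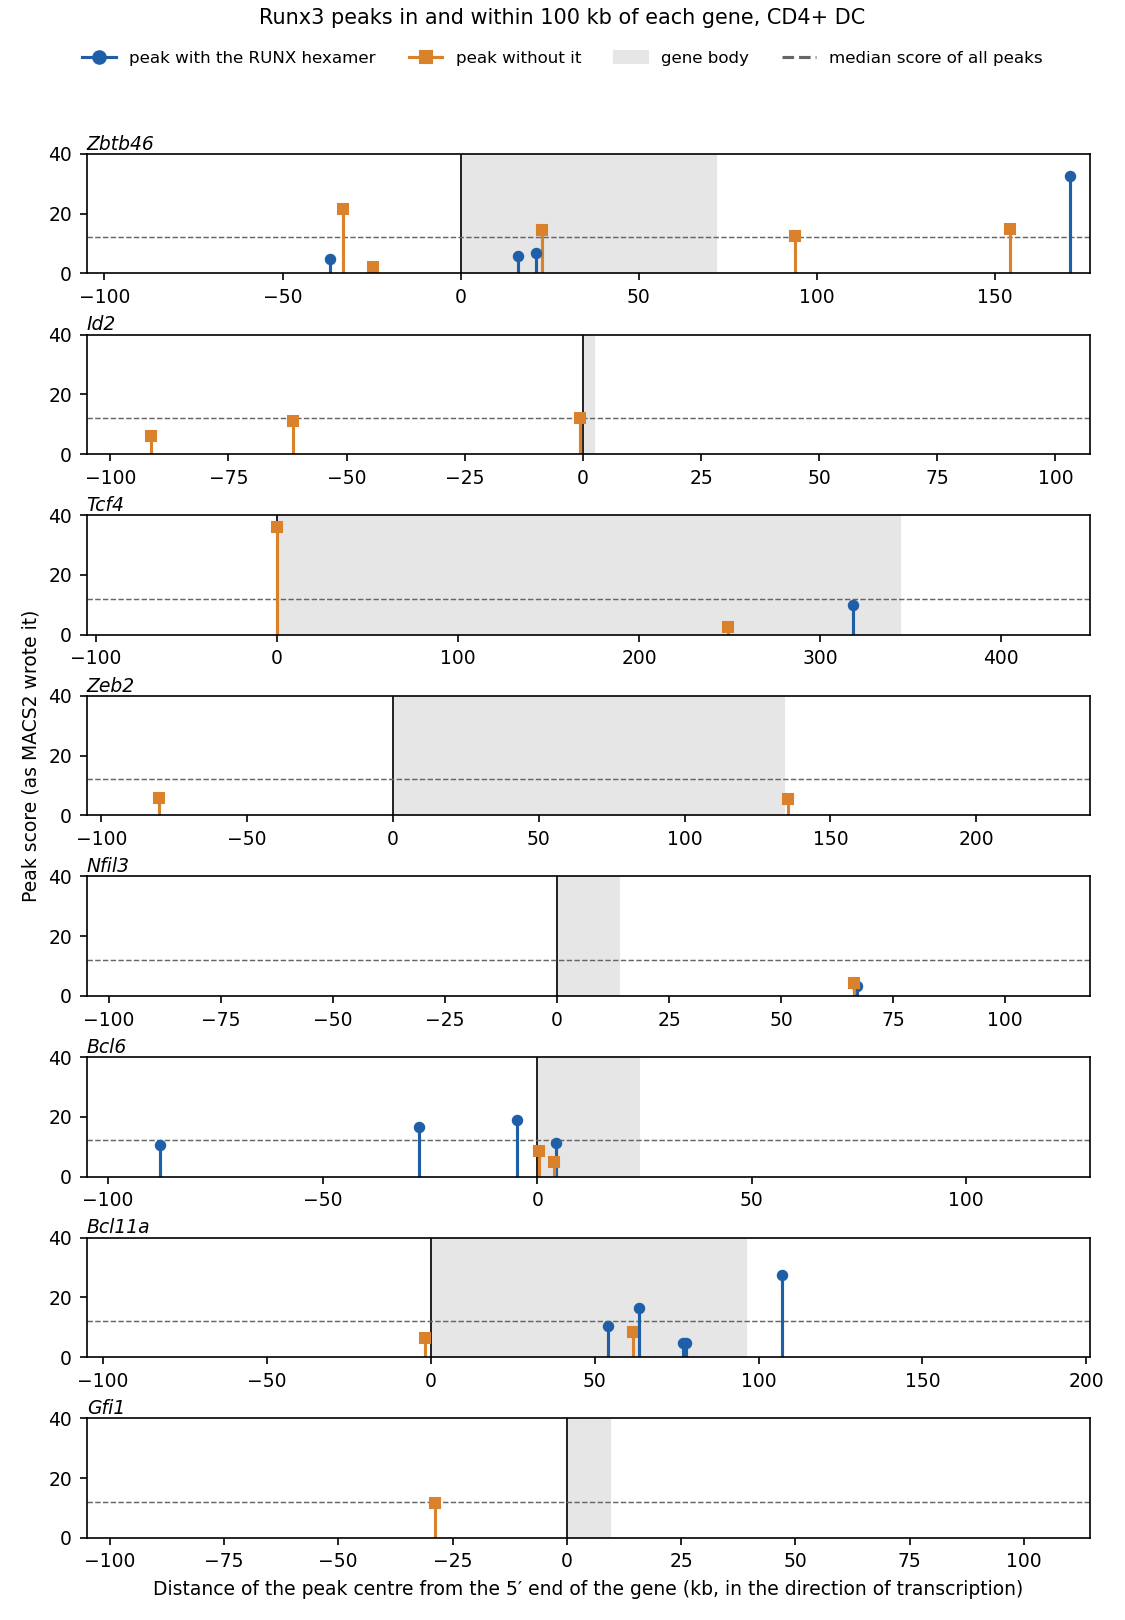
Position and score of the 33 Runx3 peaks in the windows of the 8 genes. The x axis gives the distance of the peak centre from the 5′ end of the gene in kb, in the direction of transcription, and the y axis the peak score as MACS2 wrote it. Circles are peaks with the RUNX hexamer TGTGGT, squares are peaks without it, grey is the gene body and the dashed line is the median score of all peaks, 12.1. Zbtb46, Bcl6 and Bcl11a hold 22 of the peaks, and the bodies of Id2, Nfil3, Gfi1 and Zeb2 hold none.

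Placement differed among the genes. A peak lay in the body of 4 of the 8 genes, Zbtb46, Tcf4, Bcl6 and Bcl11a, against 23.1% of all genes. A peak lay within 1 kb of an annotated transcription start site (TSS) of 4 genes, Id2, Tcf4, Bcl6 and Bcl11a, against 24.9% of all genes. Of the 8 genes, 7 were nearest by protein-coding TSS to a peak of their own window, against 36.5% of all genes nearest to any peak, and Nfil3 was the exception. By this rule 23 of the 33 peaks belonged to the gene whose window they lay in, and 10 lay nearer to 1 of 8 other genes. Longer genes offer more room for a peak. In gene bodies of 100 to 200 kb, the length class of Zeb2, 44.2% of genes held a body peak. In bodies under 10 kb, the class of Id2 and Gfi1, 10.1% did. The share was 26.7% at 10 to 50 kb, the class of Bcl6 and Nfil3, and 38.2% at 50 to 100 kb, the class of Zbtb46 and Bcl11a. For bodies of 200 kb or more, the class of Tcf4, it was 42.5%. The share of 23.1% over all genes is thus not matched for length. Nor is the share of 24.9% matched for the number of annotated TSSs, each of which offers a place for a peak. That number was 14 at Tcf4, 10 at Zeb2, 6 at Bcl11a and 5 at Gfi1. It was 2 at Zbtb46, 2 at Bcl6, 1 at Id2 and 1 at Nfil3.

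The peaks of these genes included few of the strongest in the list. The score, a value that MACS2 assigns to each peak and whose unit is not stated, had a median of 9.84 over the 33 peaks and of 12.1 over all peaks. Of the 33 peaks, 11 (33.3%) reached the median of the list, where 50.0% of all peaks did. A score in the upper quartile, 23.2 or more, was reached by 3 peaks (9.09%) against 25.4% of all peaks. A score below the lower quartile of 7.2 was found in 14 of the 33, against 3641 of the 15121 peaks. The 3 in the upper quartile were a peak of 36.14 at the promoter of Tcf4, a peak of 32.66 at the far end of the Zbtb46 window and a peak of 27.64 beyond the 3′ end of Bcl11a. The 33 peaks had a median width of 366 bp, and all peaks had 406 bp. Of the 33, 9 (27.3%) lay within 1 kb of any annotated TSS and 15 (45.5%) more than 10 kb away, against 38.0% and 34.6% of all peaks.

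**Figure D2:**
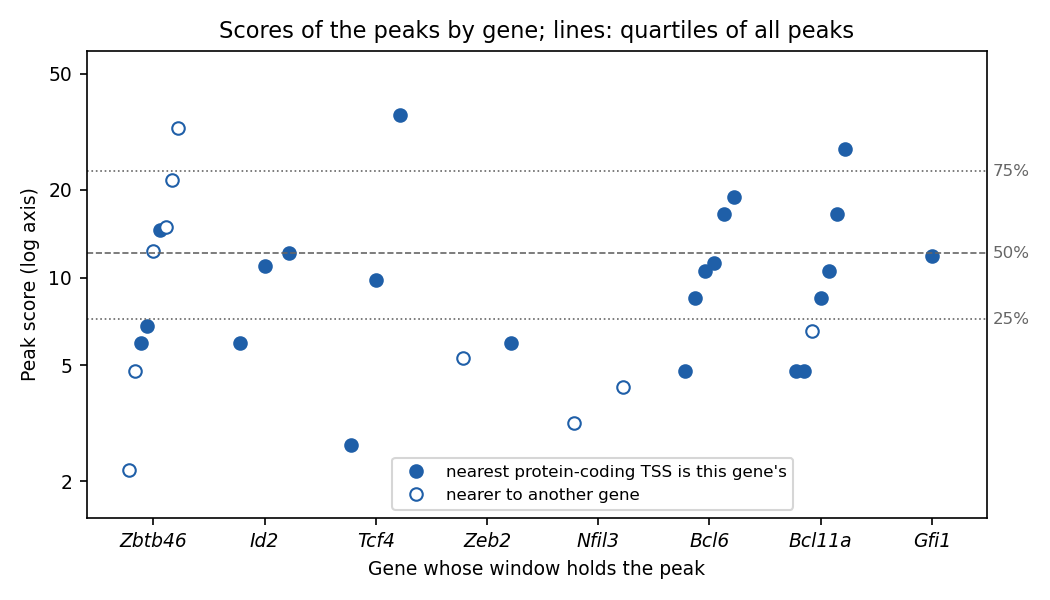
Score of each of the 33 peaks by gene, on a log axis. Filled circles are peaks whose nearest protein-coding TSS belongs to the gene, open circles are peaks nearer to another gene, and the lines are the quartiles of all peaks. Of the 33 peaks, 3 lie above the upper quartile of 23.2, at Tcf4, Zbtb46 and Bcl11a.

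Zbtb46, a BTB zinc finger repressor also known as zDC, had the most peaks of the 8 genes, but its own promoter had none. The gene lies on chr2:181122467-181194131, minus strand (mm9), and the nearest peak centre was 16186 bp from a TSS. Intron 1 held 3 peaks, at 16233, 21066 and 22967 bp downstream of the 5′ end, with scores of 5.96, 6.85 and 14.58. The first 2 of these are weak, at or above 18.9% and 23.1% of all peaks, yet each held 1 TGTGGT within 40 bp of its centre. The stronger one, at or above 57.8% of all peaks, held none. The sequences of both weak peaks are shown because they hold the only copies of the hexamer in peaks of this gene body. The strand is plus, and capitals mark the hexamer, which reads ACCACA because the match is on the minus strand:
Zbtb46 intron 1, chr2:181172939-181173191: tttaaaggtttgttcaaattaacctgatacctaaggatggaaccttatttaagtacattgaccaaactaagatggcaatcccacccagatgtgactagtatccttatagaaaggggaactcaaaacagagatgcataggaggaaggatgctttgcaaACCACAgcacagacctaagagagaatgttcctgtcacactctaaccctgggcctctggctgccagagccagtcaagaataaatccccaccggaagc
Zbtb46 intron 1, chr2:181177754-181178041: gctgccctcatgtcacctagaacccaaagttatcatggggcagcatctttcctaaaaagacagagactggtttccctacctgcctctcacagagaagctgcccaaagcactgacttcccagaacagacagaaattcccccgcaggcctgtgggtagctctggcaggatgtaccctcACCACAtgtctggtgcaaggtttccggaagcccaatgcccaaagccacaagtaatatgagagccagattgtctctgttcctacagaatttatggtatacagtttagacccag

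The remaining 6 peaks of the Zbtb46 window lay nearer to the TSS of another gene, in a window with the TSS of 9 other protein-coding genes. The peak with the highest score of the window, 32.66, was 145 bp from the TSS of Gmeb2 and carried 3 copies of TGTGGT. A peak of 12.38 was centred 84 bp from the TSS of Zgpat and held TGACGT, the hexamer ascribed to the Zbtb46 protein. A peak of 21.67 was 781 bp and a peak of 2.19 was 9314 bp from the TSS of Abhd16b. The other two, scored 14.96 and 4.79, were nearest to Stmn3 and Tpd52l2. The count of 9 at Zbtb46 therefore fell to 3 when peaks were given to the nearest gene.

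Id2, which encodes a helix-loop-helix protein without a DNA-binding region and is required for the CD8+ cDC lineage, had 3 peaks and all lay upstream. The gene body on chr12:25778666-25780957, minus strand, is only 2.29 kb long and held none. The promoter peak was centred 521 bp upstream of the TSS and had a score of 12.14, next to the median of the list. The other peaks lay 61247 and 91351 bp upstream, with scores of 10.98 and 5.96. No other protein-coding TSS lay in this window, so Id2 was the nearest gene of all 3. None of the 3 peaks held TGTGGT. The promoter peak held 2 copies of TGCGGT, the other RUNX form, on opposite strands. This stretch is shown because no other peak within 1 kb of a TSS of the 8 genes held TGCGGT. The strand is plus, and capitals mark the hexamer, with ACCGCA for a match on the minus strand:
Id2 promoter, chr12:25781328-25781627: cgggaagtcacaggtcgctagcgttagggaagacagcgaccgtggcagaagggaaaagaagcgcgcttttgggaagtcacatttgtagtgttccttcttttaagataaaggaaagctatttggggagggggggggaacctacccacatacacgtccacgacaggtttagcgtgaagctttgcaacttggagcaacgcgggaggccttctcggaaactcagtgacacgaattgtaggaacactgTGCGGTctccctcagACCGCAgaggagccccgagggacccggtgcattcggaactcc

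Nfil3, a bZIP repressor needed for CD8+ cDC, had the lowest top score of the 8 genes. Its window on chromosome 13 held 2 peaks, with scores of 3.17 and 4.23, at or above 2.67% and 7.57% of all peaks. Both lay downstream, 66921 and 66338 bp from the 5′ end, inside intron 3 of Auh, and a gap of 292 bp separated them. Their nearest TSS was that of Auh, 5080 and 4497 bp away, so no peak was nearest to Nfil3 itself. The weaker one held a TGTGGT 0.5 bp from its centre. It is shown as a case of a low score with a central hexamer. The strand is plus, and capitals mark the match:
Nfil3 window, Auh intron 3, chr13:53009390-53009652: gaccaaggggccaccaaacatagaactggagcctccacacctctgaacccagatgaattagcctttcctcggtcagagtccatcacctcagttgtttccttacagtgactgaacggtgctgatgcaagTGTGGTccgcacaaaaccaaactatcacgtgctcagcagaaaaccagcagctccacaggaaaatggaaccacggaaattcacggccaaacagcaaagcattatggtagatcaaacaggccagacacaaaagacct

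Bcl6, a BTB zinc finger repressor of cDC and germinal centre B cells, had the densest gene body of the 8 genes. The body, chr16:23965138-23988938 on the minus strand, carried 12.6 peaks per 100 kb. Its 3 peaks all lay in intron 1, at 362, 3892 and 4364 bp from the 5′ end, with scores of 8.49, 4.79 and 11.24. The last 2 were 61 bp apart. Upstream there were 3 more peaks, at 4709, 27534 and 87827 bp from the TSS, with scores of 18.95, 16.53 and 10.53. Bcl6 was the nearest protein-coding gene of all 6, which held for no other of the 8 genes with more than 3 peaks. The upstream peaks thus had higher scores than the 2 weaker intron peaks, and all 3 held TGTGGT.

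The strongest Bcl6 peak, 4709 bp upstream, was also the widest of the 33 with 701 bp, and its single TGTGGT lay 294 bp from the centre. The peak 27534 bp upstream held 4 copies of the hexamer, the most of any of the 33 peaks, 2 on each strand, the nearest 12.5 bp from the centre. It also held 1 AP-1 site of the form TGANTCA. In intron 1, the peak at 4364 bp held 1 TGTGGT and that at 3892 bp held 2 TGCGGT. The peak at 362 bp held neither form but 2 copies of CAGGTG, the E-box bound by Zeb2 and E proteins. The far upstream peak with its 4 hexamers is shown on the plus strand, with TGTGGT or ACCACA in capitals:
Bcl6 upstream, chr16:24016315-24016614: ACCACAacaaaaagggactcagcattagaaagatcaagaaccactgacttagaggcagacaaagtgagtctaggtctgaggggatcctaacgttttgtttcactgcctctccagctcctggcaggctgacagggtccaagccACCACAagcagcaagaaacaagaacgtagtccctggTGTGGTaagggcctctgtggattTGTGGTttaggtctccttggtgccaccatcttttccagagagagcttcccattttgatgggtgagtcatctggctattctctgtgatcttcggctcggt

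Gfi1, a zinc finger repressor of haematopoietic progenitors and granulocytes, had 1 peak. It was centred 28838 bp upstream of the gene (chr5:108145674-108155056, minus strand), in intron 19 of Evi5, with a score of 11.82 at or above 47.9% of all peaks. The gene body of 9.38 kb had none. The peak held no TGTGGT and no TGCGGT, and it held 2 copies of TGANTCA in a stretch with a GC content of 36.8%, the lowest of the 33 peaks. The stretch is shown on the plus strand, with the 2 AP-1 matches in capitals, as an example of a peak that held neither RUNX form:
Gfi1 upstream, Evi5 intron 19, chr5:108183744-108184043: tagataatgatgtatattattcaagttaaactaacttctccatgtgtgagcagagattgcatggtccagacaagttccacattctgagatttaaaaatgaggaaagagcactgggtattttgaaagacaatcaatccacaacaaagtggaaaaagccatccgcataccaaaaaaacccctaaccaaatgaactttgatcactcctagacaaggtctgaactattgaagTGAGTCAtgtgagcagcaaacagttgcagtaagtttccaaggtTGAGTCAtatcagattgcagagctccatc

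Among Bcl11a, Zeb2 and Tcf4, the regulators of pDC in the set of 8, Bcl11a had the most peaks. It encodes a zinc finger protein that pDC and B cells require. The gene lies on chr11:23978056-24074123, plus strand, and intron 2 held 5 peaks, with scores of 4.79, 4.79, 8.49, 10.53 and 16.53, or 5.2 peaks per 100 kb of gene body. The strongest of these was centred 690 bp upstream of an internal TSS, which belongs to a transcript without a coding annotation. Of the 5 intron peaks, 4 held TGTGGT, and the one of 10.53 held a copy at its centre. A peak of 6.57 lay 1696 bp upstream of the gene, and its nearest protein-coding TSS was that of A830031A19Rik, 1306 bp away, with a noncoding TSS of Gm12063 at 199 bp. The peak with the highest score of this window, 27.64, lay 107021 bp downstream of the 5′ end and past the 3′ end of the gene, and ranked at or above 80.7% of all peaks. It held 1 TGTGGT 36.0 bp from its centre and 2 copies of CAGGTG. By protein-coding TSS, Bcl11a differed from Zbtb46 in that 6 of its 7 peaks were nearest to the gene itself. The peak of 27.64 was 42698 bp from a TSS of Bcl11a, and a noncoding TSS of 4930538E20Rik was nearer, at 12253 bp. The stretch is shown on the plus strand with the RUNX hexamer in capitals:
Bcl11a downstream, chr11:24084927-24085226: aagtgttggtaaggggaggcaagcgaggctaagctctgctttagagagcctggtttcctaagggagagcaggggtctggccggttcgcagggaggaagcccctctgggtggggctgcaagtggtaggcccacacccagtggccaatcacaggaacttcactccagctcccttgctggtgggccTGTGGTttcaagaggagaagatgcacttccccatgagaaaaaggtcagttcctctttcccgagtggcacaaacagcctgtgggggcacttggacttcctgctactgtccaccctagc

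Zeb2, a zinc finger and homeodomain repressor that binds E-boxes and promotes pDC and CD11b+ cDC, had no peak in its body of 134 kb. Its window on chromosome 2 held 2 weak peaks. One lay 80092 bp upstream with a score of 5.96, and the other lay 135560 bp downstream of the 5′ end, just past the 3′ end, with 5.3. The latter was nearer to the TSS of Gtdc1, at 54178 bp. Neither peak held any of the motifs searched. By score both lay in the lowest quartile of the list, at or above 18.9% and 12.3% of all peaks.

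Tcf4, the E protein E2-2 that maintains pDC identity, had the strongest peak of the 8 genes, and this peak was at the promoter of its 5′ end. The gene body spans 344 kb on the plus strand and held 3 peaks, with none in the flanking 100 kb on either side. The promoter peak had a score of 36.14, at or above 87.3% of all peaks, and its centre was 16 bp from a TSS. It held neither TGTGGT nor TGCGGT, with a GC content of 57.3%, and it held 1 TGANTCA. A second peak, of 2.67, lay 129 bp from an internal TSS in intron 8, and it held no RUNX form either. The third, of 9.84, lay in intron 15 and carried 1 TGTGGT. The window of 544 kb thus combined a strong promoter peak with a low density.

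Over all 33 peaks, 15 held TGTGGT on either strand, or 45.5% (Wilson 95% interval 29.8 to 62.0, counting error only). The share over all peaks was 54.0% (53.2 to 54.8), which lies within the interval of the smaller set. Windows of equal width placed 10 kb downstream of the 33 peaks held the hexamer in 27.3% (15.1 to 44.2), and those of all peaks in 30.9%. The intervals of the 33 peaks and of their windows overlap. Each window was matched to its own peak, which these intervals do not use, and whether the shares differ was not tested. The hexamer was found in 4 peaks of the Zbtb46 window, 1 of Tcf4, 1 of Nfil3, 4 of Bcl6 and 5 of Bcl11a, and in none of Id2, Zeb2 and Gfi1. Of the 5 peaks within 1 kb of a TSS of these genes, 1 held TGTGGT, and of all 5745 peaks near a TSS 34.4% did. Peaks nearest to 1 of the 8 genes held it in 12 of 23 cases, and peaks nearer to another gene in 3 of 10. The 15 peaks with the hexamer had a median score of 10.5 and the 18 without it of 8.49. The median of the list was reached by 33.3% of either group, and the highest scores were 32.66 with the hexamer and 36.14 without it.

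TGCGGT was present in 3 of the 33 peaks, 9.09% against 20.1% of all peaks, at Id2, Bcl6 and Zgpat, and none of these 3 held TGTGGT. Neither form was found in 15 of the 33 peaks (45.5%), and in 33.5% of all peaks. With any base at the third position, as TGNGGT, 21 of the 33 peaks (63.6%, interval 46.6 to 77.8) and 81.7% of all peaks had a match. Other motifs were searched on both strands as well. The Zbtb46 hexamer TGACGT was in 2 of the 33 peaks (6.06%, interval 1.68 to 19.6) against 11.0% of all peaks, once near Zgpat and once far upstream of Id2. The PU.1 site GAGGAAGT was in 3 peaks (9.09%, 3.14 to 23.6) against 14.6%, in the windows of Zbtb46, Id2 and Bcl6. TGANTCA was in 5 peaks (15.2%, 6.65 to 30.9) against 13.2%. The E-box CAGGTG was in 11 peaks (33.3%, 19.8 to 50.4) against 25.3%, and in 13 of the 33 downstream windows. TTANGTAA, the site of the Nfil3 protein, was in 2 peaks (6.06%, 1.68 to 19.6) against 3.37%, and both lay nearer to another gene. The share over all peaks lay within the interval of the 33 peaks for each of the other 7 motifs, and above it for TGNGGT. The 33 peaks were also narrower than peaks in general, which leaves fewer bases to match, and the part of width was not tested. A match is a run of letters and does not show that a factor binds there.

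**Figure D3:**
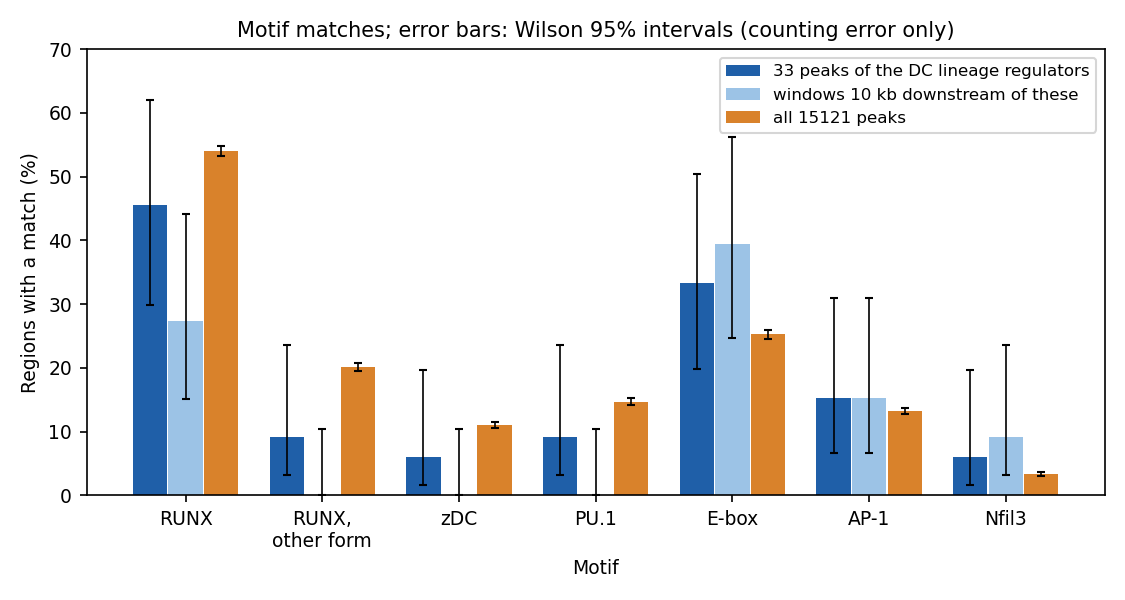
Share of regions that hold each motif, in percent, for the 33 peaks of the 8 genes, for windows of equal width 10 kb downstream of them and for all 15121 peaks. Error bars are Wilson 95% intervals for counting error only. RUNX is the hexamer found in 45.5% of the 33 peaks and 54.0% of all peaks, and the intervals of the 33 peaks and of their windows overlap for every motif.

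The families of these genes were set beside them. Of 12 paralogs, 10 had a peak in their window, with a median of 1.33 peaks per 100 kb against 1.21 for the 8 genes and 0.943 for all genes. Gfi1b, the paralog of Gfi1, had 8 peaks with a highest score of 59.63, but none was nearest to it. Zeb1 had 3 peaks, 1 with a score of 41.11, and 2 lay within 1 kb of a TSS, whereas Zeb2 had no peak there. Bcl11b, which has a role in T cells, had no peak within 100 kb, and its nearest was 176057 bp away, unlike Bcl11a with 7. Among the Id genes, which share the inhibition of E proteins, Id3 had 7 peaks and 1 at 166 bp from a TSS, Id1 had 3 with the nearest 66813 bp from a TSS, and Id4 had none. The other E proteins Tcf3 and Tcf12 had 4 and 2 peaks, and that of Tcf3 nearest to a TSS was at 305 bp. Of the PAR bZIP genes related to Nfil3, Dbp and Tef had 6 peaks each, with peaks at 74 and 99 bp from a TSS, and Hlf had 3. Bcl6b, the paralog of Bcl6, had 2 peaks, both nearer to another gene. A peak at a TSS was thus present at 5 of 12 paralogs and at 4 of the 8 genes. Many peaks of the other paralogs also lay nearer to another gene. These were 6 of the peaks of Id3, 3 of Id1, 3 of Tcf3, 5 of Dbp, 4 of Tef, 2 of Hlf and 1 of Zeb1. By nearest gene, Id3 thus kept 1 peak, where Id2 kept 3.

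Among 13 other transcription factors of DC, all had a peak, with a median of 3.45 per 100 kb and a range of 1 to 15 peaks. Batf3, a partner of Irf8 in CD8+ cDC, had 15 peaks, of which 14 held TGTGGT, and its density of 7.12 per 100 kb exceeded that of 99.4% of genes. Spi1, which encodes PU.1, had 10 peaks with a highest score of 99.32. Irf4 and Irf8, factors of the CD4+ and the CD8+ cDC, had 8 and 2 peaks. As at Zbtb46, many of these peaks lay nearer to the TSS of another gene. This held for 9 of the Batf3 peaks, 4 of Spi1, 4 of Irf4 and 2 of Irf8, and the body of Batf3 held no peak. Of these 13 genes, 10 had a peak in the gene body and 7 at a TSS. Of 10 regulators of other lineages, which DC are not known to use, 6 had a peak in their window, with a median of 0.492 per 100 kb. None of the 10 had a peak in its body or at a TSS. By protein-coding TSS only 1 of them, Myog, was nearest to a peak of its window, and this held for 1 of its 2 peaks. Over all genes, 72.1% had a peak in the window, 23.1% in the body and 24.9% at a TSS. The 8 genes lay between these lists, and their density overlapped both. The lists differ in gene length, with median bodies of 47.8 kb for the 8 genes, 23.2 kb for the other DC factors and 4.16 kb for the regulators of other lineages. The part of gene length in these counts was not tested.

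**Figure D4:**
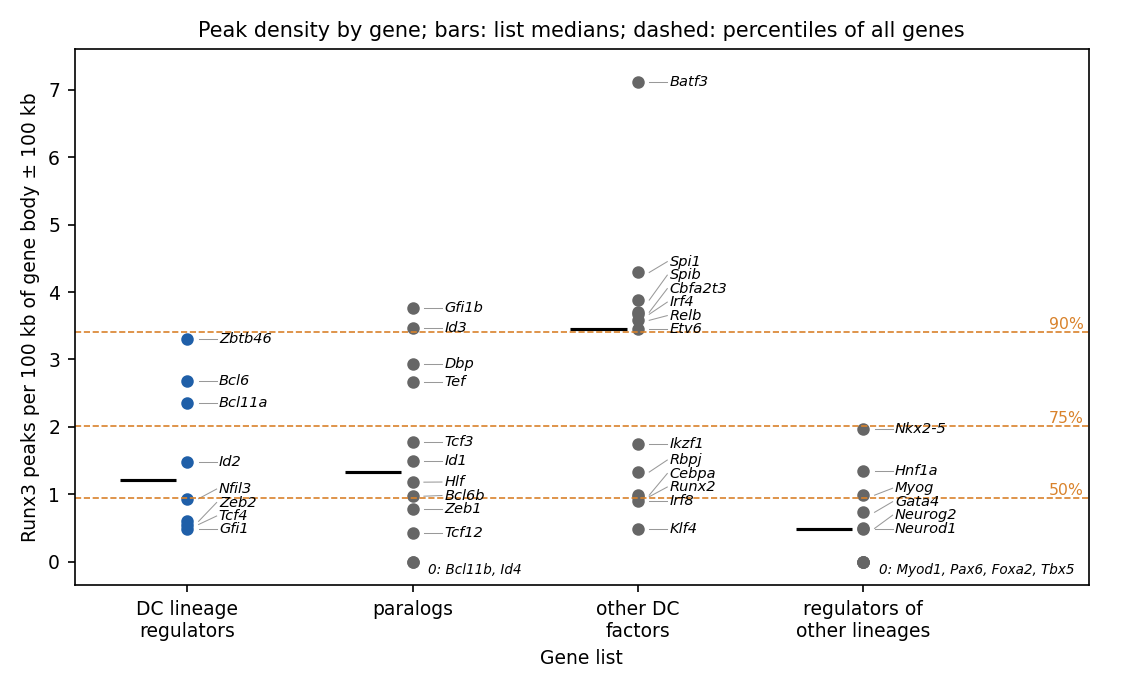
Runx3 peaks per 100 kb of window for each gene of the 4 lists. Points are genes, bars to their left are list medians, and dashed lines are the 50th, 75th and 90th percentile of all genes. Zbtb46, Bcl6 and Bcl11a lie above the 75th percentile of 2.02, and Zeb2, Tcf4 and Gfi1 lie below the median of 0.943.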

How the data were processed

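Runx3 ChIP-seq was measured in 2 Runx3_IP and 2 input samples. The authors aligned 50 bp reads to mm9 with bowtie after CASAVA 1.8, and called peaks with MACS2 on the pooled samples, with versions of both and the threshold not given in the sources used here. The deposited list gives a start, an end and a score for each of 15121 peaks, from 1.33 to 309. The unit of this score is not stated, so it served only to rank and filter peaks within the list. Depth per sample was not analysed here, so a region without a peak may hold binding too weak for the caller.

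Peaks were placed by their centre, with positions counted from 1. Genes came from GENCODE M1 and sequence from NCBIM37, the mm9 assembly. The background was 22367 protein-coding genes plus Gfi1, which GENCODE M1 lists as a processed transcript. Spi1 was matched under an older symbol, and of the Runx2 entries the longest was used. Introns are those of the longest protein-coding transcript. Motifs were looked for over the full width of a peak in both orientations and counted once per site. TGNGGT includes TGTGGT and TGCGGT. Control windows that met another peak or an assembly gap were left out, which removed none of those of the 33 peaks.

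Named were the 8 genes with all their peaks, their paralogs, the other DC factors, the regulators of other lineages, and genes nearest to the peaks. The genes and lists were chosen with earlier results of these data known. No test was run, because the list has no value per replicate. Interval and motif searches were tested on simulated data. Alternatives were other distances, score thresholds, TSS sets, overlap rules, joining of peaks less than 300 bp apart, motif forms and control windows. The tools were pysam 0.24.0, pandas 2.3.3, scipy 1.17.1 and matplotlib 3.10.9, with numpy 2.4.6 under Python 3.11.15.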

Additional observations from a re-analysis of the deposited data

How the results depend on the processing

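The count of 33 peaks depended on the distance and the score: it was 14 in gene bodies alone, 18 within 10 kb, 54 within 200 kb, 11 at or above the median score and 3 at or above the upper quartile. It stayed within 1.5 times the reported count under the other rules, at 25 within 50 kb, 23 by nearest gene, 31 with close peaks joined, 33 by any base of the peak and 24 without the Zbtb46 window, the last chosen after seeing the data. Within 10 kb, 2 genes had no peak, and within 200 kb none was without one. The shares of all genes within 10 kb and 200 kb are not given here, so these counts have no background beside them. The order of the genes also depended on the distance. Within 200 kb Zbtb46 had 13 peaks, Id2 had 10, Bcl11a and Bcl6 had 8 each and Gfi1 had 5. Within 10 kb Bcl11a had 6, Bcl6 had 4, and Zbtb46 and Tcf4 had 3 each. The 4 genes with a peak at a TSS became 1 at or above the upper quartile of the score, which was Tcf4, and 3 with the 5′ end of the gene alone. They also became 3 with the TSSs of protein-coding transcripts alone, a rule chosen after seeing the data. The shares of all genes under these changed TSS rules are not given here either. The share of 45.5% with TGTGGT became 63.6% with TGNGGT, 9.09% with TGCGGT, which was chosen after seeing the data, and 66.7% (2 of 3 peaks) at or above the upper quartile of the score. It was 36.4% in the central 200 bp, where all peaks had 41.8%. The share of all peaks at or above the upper quartile that held TGTGGT is not given here, so the 2 of 3 peaks cannot be set beside it. Control windows upstream in place of downstream held TGTGGT in 33.3%.

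No analysis paired by replicate was possible because the peaks carry no value per replicate. Weak peaks could not be checked in each precipitate, and a distance of 100 kb does not show which gene a region acts on.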
